A study of Mus musculus with 12 samples.

Results

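The loss of Sgpp2 was examined in mice on a normal diet by comparing 3 arrays of knockout (KO) mice with 3 arrays of wild-type (WT) mice. These 6 arrays, chosen by their titles, genotype and diet labels, are 6 of the 12 Affymetrix Mouse Genome 430 2.0 arrays of the series. The other 6 hold the same 2 genotypes on a high-fat diet. They entered the choice of probe set, the filter on low values and the estimate of the spread between arrays. They also serve as a comparison where stated. Both groups were of the strain C57BL6 and received no agent beyond the diet. The labels name the genotypes as wild type and knockout only. The design of the allele, the cells in which the gene was deleted, the sex and age of the mice, the duration of the diets and any pooling of animals are not stated in the sources used here. No tissue is labelled, and the title of the series names pancreatic islets. Islet hormones were bright on all 6 arrays: insulin 2 (Ins2) lay between 14.47 and 14.70, glucagon (Gcg) between 14.32 and 14.53 and somatostatin (Sst) between 14.20 and 14.38. All values are log2 robust multi-array (RMA) levels, so a difference of 1 is a 2-fold change. Nothing in the labels says whether the 3 arrays of a group are separate animals. The p-values therefore reflect only the spread among these samples, which may be technical.

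Sphingosine-1-phosphate (S1P) is a signalling lipid made from sphingosine by sphingosine kinases, exported from the cell and sensed by G-protein-coupled receptors. It is cleared by a lyase, which destroys it, and by S1P phosphatases of the endoplasmic reticulum (ER), encoded by Sgpp1 and Sgpp2, which return it to sphingosine for the synthesis of ceramide. In islets, ceramide and S1P are known as lipids that bear on insulin secretion, ER stress and the survival and division of β-cells. The comparison on the normal diet asks which genes differ between the genotypes when the islets carry no dietary load.

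Of 15237 genes tested with limma, 128 passed an adjusted p of 0.05 (Benjamini-Hochberg), which is 0.84% of the genes. In KO, 73 were higher (0.479%) and 55 lower (0.361%). The changes were small: 12 genes differed more than 2-fold, 7 up and 5 down, and the median change was 0.61 among the genes that rose and −0.58 among those that fell. The median over all genes was −0.05, and the median standard error (SE) of a difference was 0.12. In every called gene the 3 KO arrays lay wholly above or below the 3 WT arrays, by a median gap of 0.40, but so did 34.3% of all genes, 12% above and 22.2% below. Pairs of arrays within a genotype correlated with r between 0.9932 and 0.9959, and pairs across genotypes with r between 0.9882 and 0.9941, so the ranges overlapped. Some arrays stood apart in part of the transcriptome. WT array 1 was high in genes of cell division and KO array 1 in genes of intestinal epithelium, as described with those gene lists.

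The count of 128 rested on all 6 arrays. Without WT array 1, 2 or 3 it was 2, 4 or 3, and without KO array 1, 2 or 3 it was 69, 5 or 3. It also moved with the high-fat arrays that share the estimate of spread: without WT high-fat array 1, 2 or 3 it was 59, 223 or 30, and without KO high-fat array 1 or 2 it was 72 or 67. The share of calls in the upward direction, 57%, depended on the settings. It was 76.4% of 127 calls with cyclic loess between arrays and 81.5% of 238 calls when every array was shifted to the same median. Falls outnumbered rises in other settings: array weights gave 505 up and 670 down, averaged probe sets 31 and 38, the normal-diet arrays alone 2 and 4, and leaving out KO array 1 gave 33 and 36. Cyclic loess and median centring moved the median over all genes from −0.05 to −0.02 and 0.01. The genes that rose were brighter than those that fell, with median levels of 10.58 and 8.39 against 9.31 over all genes.

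The targeted gene was set against the genotype labels, which its probe set may not be able to check. Sgpp2 read 11.55, 11.51 and 11.63 on the WT arrays and 11.03, 11.17 and 10.99 on the KO arrays. The groups did not overlap, with KO below WT as in 22.2% of all genes, and on the linear scale KO stood at 70.6% of WT. The difference of −0.50 (SE 0.07) had a limma adjusted p of 0.0263, and an exact two-sided permutation test over the 6 arrays gave p = 0.1, the smallest that 3 against 3 arrays allow. The gene is represented by 1 probe set, whose place relative to the deleted part is not stated in the sources used here. Probes that lie outside the deletion check nothing about it. The difference lay between −0.47 and −0.55 whichever array of the 6 was left out, but its adjusted p rose to 0.117, 0.0522 and 0.0992 without WT array 1, 2 and 3, and to 0.0628 and 0.0935 without KO array 2 and 3.

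**Figure D1:**
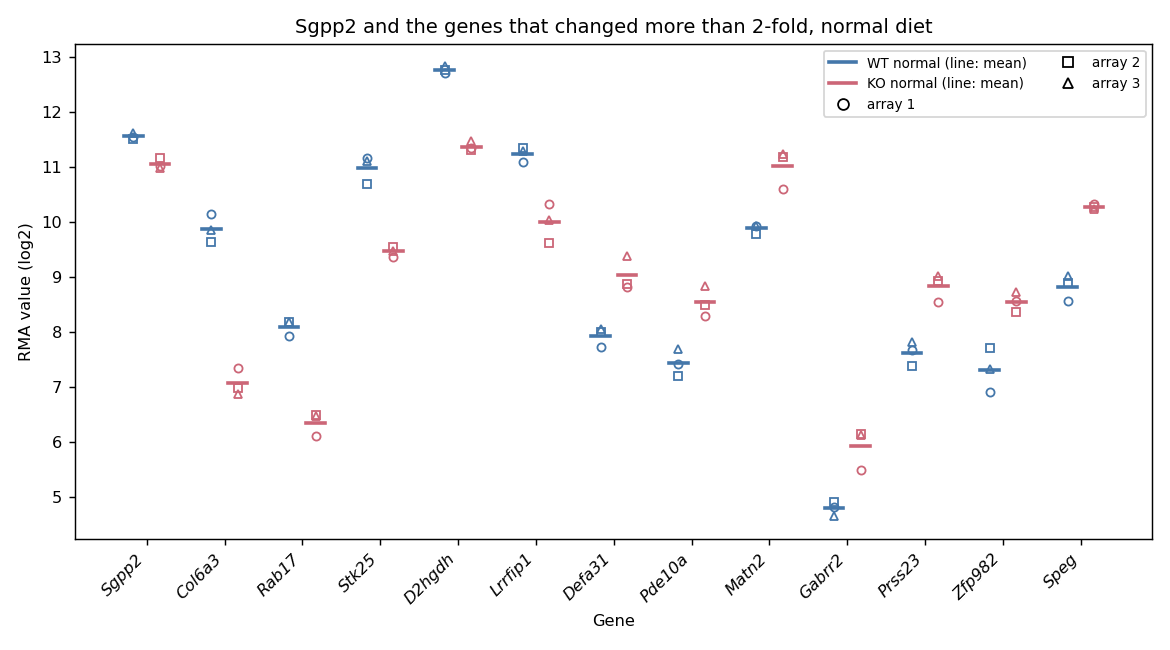
RMA values (log2, vertical axis) of Sgpp2 and of the 12 genes that changed more than 2-fold, on the 3 WT (blue) and 3 KO (red) normal-diet arrays; symbols mark arrays 1, 2 and 3 and lines the group means. In each of these genes the 3 arrays of 1 genotype lie apart from the 3 of the other, with the widest distance in Col6a3 and the narrowest in Sgpp2.

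Among the enzymes of sphingolipid metabolism, Sgpp2 was joined by 1 other gene. Of 39 members tested from a list of 47, 0 rose and 2 fell, Sgpp2 and Fa2h, and the list's median was −0.07, or 0.00 after cyclic loess. Fa2h, the fatty acid 2-hydroxylase that supplies 2-hydroxylated sphingolipids, read 6.31, 5.79 and 6.08 in WT and 4.97, 5.55 and 4.996 in KO. It fell by 0.89 (SE 0.16, 1.85-fold, adjusted p = 0.0443), with both groups in the dim part of the scale and KO array 2 closest to WT.

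The other phosphatase and the first step of synthesis did not pass the threshold. Sgpp1, which removes the same phosphate as Sgpp2, read 11.96, 12.14 and 12.11 in WT and 12.39, 12.38 and 12.40 in KO, a difference of 0.32 (SE 0.09, adjusted p = 0.0939). Sptlc2, a subunit of serine palmitoyltransferase, which starts ceramide synthesis, read 10.10, 9.93 and 9.98 in WT and 9.68, 9.56 and 9.52 in KO, a difference of −0.42 (SE 0.09, adjusted p = 0.063). In both genes the arrays of the genotypes did not overlap, as in 34.3% of all genes. Each passed the threshold in 2 of 22 settings tried. The alkaline ceramidase Acer2, which releases sphingosine from ceramide, differed by 0.35 (adjusted p = 0.13) and the ceramide desaturase Degs1 by 0.18 (adjusted p = 0.161).

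The enzymes that make or destroy S1P directly were named for their role, after their values had been seen. The kinases differed by 0.18 for Sphk1 (adjusted p = 0.253), which was dim at 5.51 to 5.76, and by −0.26 for Sphk2 (adjusted p = 0.395). The lyase Sgpl1 differed by −0.19 (SE 0.09, adjusted p = 0.249). None of the 3 passed the test. Outside the list, Nsmaf encodes an adaptor that activates neutral sphingomyelinase. It was picked from the called genes for this role, after its value had been seen. Nsmaf read 9.18, 9.37 and 9.40 in WT and 9.85, 9.94 and 10.00 in KO and rose by 0.62 (SE 0.12, adjusted p = 0.0447). On chromosome 4 it stood 3 protein-coding genes from Ubxn2b (0.62), which stood 7 from Chchd7 (0.52), and both were also called and higher in KO. Whether the shared position has a part in these 3 rises was not tested.

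Among the 128 called genes, the 5 largest falls and the largest rise were in genes near Sgpp2 on chromosome 1. Of 880 genes tested on this chromosome 17 were called (1.93%), 4 up and 13 down, against 111 of 14357 genes elsewhere or unplaced (0.773%). Position was counted in protein-coding genes from Sgpp2 in the order of the reference assembly GRCm38.p6, since the build behind the array values is not named. Within 200 genes on either side, 10 of 279 genes were called (3.58%), 3 up and 7 down, with Sgpp2 itself not counted. For these genes an effect of the loss of Sgpp2 and flanking chromosome inherited together with the targeted allele cannot be told apart.

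The 5 largest falls among the called genes stood 102 to 157 genes beyond Sgpp2. In the stretch of genes 101 to 200, 5 of 61 genes were called (8.2%), all 5 lower in KO, and in the stretch of 201 to 300, 0 of 77 were called by limma. Col6a3, an α chain of collagen VI in the extracellular matrix, is the gene 102 positions on. It read 10.15, 9.65 and 9.86 in WT and 7.35, 6.99 and 6.88 in KO, and fell by 2.81 (SE 0.28, 7.03-fold, adjusted p = 0.00444). No other called gene fell as far. Its partner chains, encoded on chromosome 10, differed by −0.30 (Col6a1, adjusted p = 0.396) and −0.07 (Col6a2, adjusted p = 0.841), and their arrays overlapped.

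Rab17, a GTPase that directs traffic in epithelial cells, 105 genes on, read 7.94, 8.19 and 8.18 in WT and 6.12, 6.49 and 6.47 in KO. It fell by 1.75 (SE 0.29, adjusted p = 0.0346). The adjoining gene Lrrfip1, which encodes a nucleic acid binding protein, read 11.10, 11.35 and 11.30 in WT and 10.33, 9.62 and 10.05 in KO and fell by 1.25 (SE 0.15, adjusted p = 0.0263). Both further probe sets of Lrrfip1 were lower too, by 1.56 and 0.79 with adjusted p of 0.00979 and 0.031 over all probe sets.

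Stk25, a kinase of the Golgi apparatus 151 genes on, read 11.17, 10.69 and 11.11 in WT and 9.38, 9.56 and 9.49 in KO and fell by 1.52 (SE 0.24, adjusted p = 0.0294). D2hgdh, the mitochondrial D-2-hydroxyglutarate dehydrogenase 157 genes on, read 12.72, 12.77 and 12.84 in WT and 11.35, 11.32 and 11.48 in KO. It fell by 1.39 (SE 0.13, adjusted p = 0.00444), the same adjusted p as Col6a3. A second, dimmer probe set of D2hgdh differed by 0.15 (adjusted p = 0.384 over all probe sets). Col6a3 passed the threshold in 21 of 21 settings tried and D2hgdh in 20 of 21. The other called genes followed across the settings passed in 7 to 15 of them: Speg in 15 of 21, Sgpp2 in 14, Kynu and Acadl in 8 and Lancl1 in 7, and Zfp982, Hps5, Hunk, Zfp941 and Ccne2 in 7 of 22.

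On the other side, 4 of 78 genes within 100 positions before Sgpp2 were called (5.13%), 2 up and 2 down. Speg, a kinase of striated muscle 12 genes before Sgpp2, read 8.57, 8.89 and 9.03 in WT and 10.34, 10.28 and 10.25 in KO, and rose by 1.46 (SE 0.21, 2.75-fold, adjusted p = 0.0263). All 3 further probe sets of Speg were higher as well, by 0.66, 1.13 and 0.90. Acadl, a mitochondrial enzyme that starts the oxidation of long-chain fatty acids, stands 82 genes before Sgpp2. It read 10.93, 10.89 and 11.20 in WT and 10.32, 10.10 and 10.04 in KO and fell by 0.85 (SE 0.17, adjusted p = 0.0468). Lancl1, a glutathione-binding protein, fell by 0.67, while a dimmer probe set of it differed by 0.29 the other way. Mreg, which encodes the melanosome regulator melanoregulin, rose by 0.52.

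Probe sets of 1 gene did not always move together. Armc9, a gene of the primary cilium 49 positions after Sgpp2, rose by 0.77 (SE 0.11, adjusted p = 0.0263) in its brightest probe set. Its WT arrays read 8.56, 8.57 and 8.81 and its KO arrays 9.44, 9.37 and 9.44. Another of its 6 further probe sets was lower by 0.78 (adjusted p = 0.0425), and the mean of all of them differed by −0.07. Over the 128 called genes, 52 had 1 probe set. Of the other 76, 31 had a further probe set with the same direction at an unadjusted p under 0.05, and 9 had one with the opposite direction.

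Several neighbours with large differences missed the threshold. Ap1s3, an adaptor subunit of clathrin-coated vesicles 7 genes after Sgpp2, read 6.42, 6.83 and 5.41 in WT and 7.89, 7.76 and 7.29 in KO. Its difference of 1.43 (SE 0.32) had an adjusted p of 0.0613, and it is named here because of that value. Mfsd9, 226 genes before Sgpp2 and named for the same reason, differed by −1.77 (SE 0.39, adjusted p = 0.0598). Farther along, 6 of 332 genes more than 300 positions beyond Sgpp2 were called (1.81%). The neural calcium sensor Syt2 fell by 0.61, the gut barrier gene Inava by 0.88, BC055324 by 0.52, Pcp4l1 by 0.72 and the prefoldin subunit Pfdn2 by 0.48. Uap1, which makes UDP-N-acetylglucosamine, rose by 0.63.

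**Figure D2:**
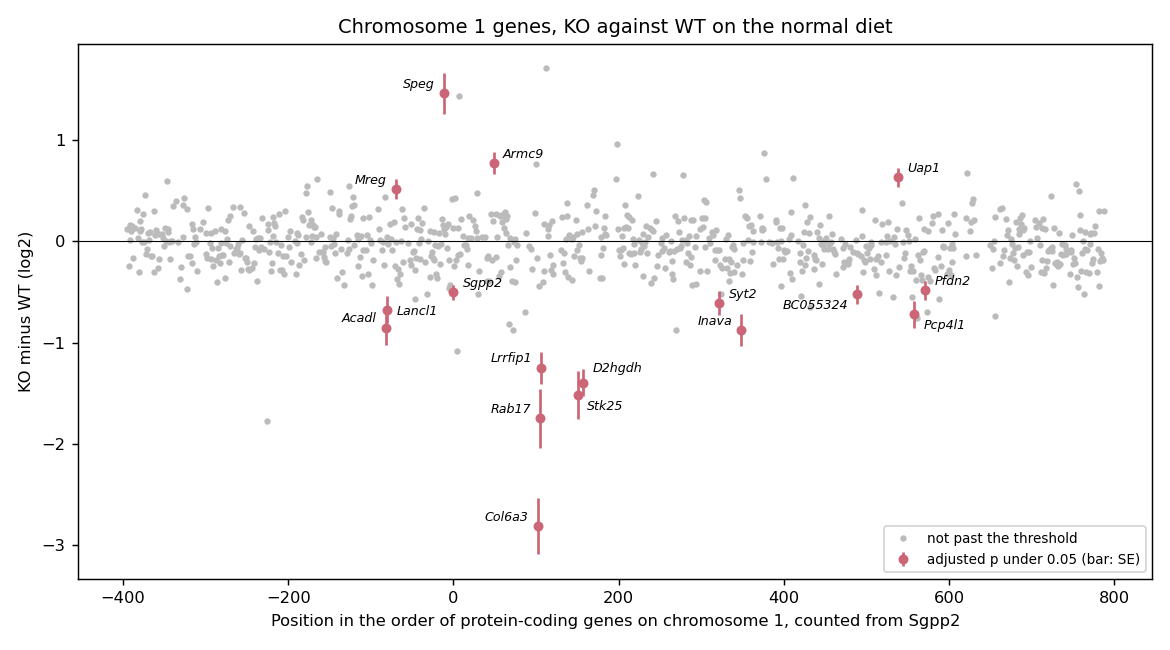
Difference between KO and WT on the normal diet (log2, vertical axis) for the 831 tested protein-coding genes of chromosome 1, against their position counted in protein-coding genes from Sgpp2 at 0; red points passed the threshold and carry their SE. The falls of over 1 on the log2 scale that passed lie between 102 and 157 genes after Sgpp2.

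Away from chromosome 1, 111 genes were called, 69 up and 42 down, and 6 of them changed more than 2-fold, all upward. Zfp982, a zinc finger gene on chromosome 4, read 6.93, 7.71 and 7.34 in WT and 8.58, 8.37 and 8.73 in KO and rose by 1.23 (SE 0.25, adjusted p = 0.0496). It belongs to a family of similar copies, and its dimmer probe sets differed by 0.23 and −0.17, so the gene behind the signal is uncertain. Prss23, a secreted serine protease on chromosome 7, read 7.67, 7.39 and 7.82 in WT and 8.56, 8.93 and 9.03 in KO and rose by 1.21 (SE 0.18, adjusted p = 0.0268). A second probe set of Prss23 was 0.53 higher, with an unadjusted p of 0.00757.

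Matn2, which encodes the matrix protein matrilin 2 on chromosome 15, read 9.94, 9.80 and 9.93 in WT and 10.61, 11.19 and 11.25 in KO. It rose by 1.13 (SE 0.16, adjusted p = 0.0263), with KO array 1 the lowest of the KO arrays, while its dimmer probe set differed by 0.10. Gabrr2, the ρ2 subunit of ionotropic GABA receptors on chromosome 4, read 4.82, 4.92 and 4.66 in WT and 5.51, 6.15 and 6.13 in KO. It rose by 1.13 (SE 0.17, adjusted p = 0.0263) from a WT level below 5, where RMA values understate differences. Its KO arrays alone meet the filter on low values. Pde10a, a phosphodiesterase that degrades cyclic AMP and cyclic GMP, read 7.42, 7.20 and 7.70 in WT and 8.30, 8.50 and 8.85 in KO and rose by 1.11 (SE 0.20, adjusted p = 0.0443). Its 2 dimmer probe sets were 0.33 and 0.16 higher.

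Defa31, an α-defensin of intestinal Paneth cells, read 7.73, 8.01 and 8.05 in WT and 8.83, 8.89 and 9.40 in KO and rose by 1.10 (SE 0.21, adjusted p = 0.0447). It is a member of a family of near-identical genes, so the copy measured is uncertain. Clca3a1, of the chloride channel regulator family, rose by 0.99 from WT values of 5.32 to 5.60 to KO values of 6.04 to 6.73. H3c4, a replication-dependent histone H3 gene with close copies, read 8.32, 8.38 and 7.96 in WT and 9.14, 9.02 and 9.26 in KO and rose by 0.92 (SE 0.15, adjusted p = 0.0306). Whether intestinal RNA, described with its marker list, has a part in the values of Defa31 was not tested.

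Hspa14, a ribosome-associated member of the HSP70 family, read 10.10, 10.31 and 10.08 in WT and 10.98, 10.87 and 11.29 in KO and rose by 0.89 (SE 0.14, adjusted p = 0.0294). Its 2 dimmer probe sets differed by −0.11 and −0.13. Sesn1, the stress-induced sestrin 1 that restrains mTORC1, rose by 0.84 (SE 0.13, adjusted p = 0.0268) from WT values of 10.57, 11.02 and 10.92 to KO values of 11.53, 11.71 and 11.79. Its further probe sets differed by −0.09, −0.06 and 0.17. Retreg1, the receptor for autophagy of the ER, read 10.25, 10.49 and 10.57 in WT and 11.25, 11.34 and 11.08 in KO and rose by 0.79 (SE 0.12, adjusted p = 0.0263). Another probe set of Retreg1 was also higher, at an unadjusted p under 0.05. Hps5, of a complex that builds lysosome-related organelles, rose by 0.86, the receptor tyrosine kinase Epha1 by 0.79 and the splicing factor Tra2a by 0.77. A dimmer probe set of Epha1 differed by −0.00, and those of Tra2a differed in both directions, from −0.29 to 0.46.

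Among the called genes outside chromosome 1, Kynu and Glra1 fell the most, and both were dim. Kynu, the kynureninase of tryptophan breakdown, read 6.40, 6.73 and 6.02 in WT and 5.63, 5.38 and 5.15 in KO and fell by 0.995 (SE 0.19, adjusted p = 0.0452). Glra1, the α1 subunit of the glycine receptor, read 5.72, 5.90 and 6.08 in WT and 5.28, 4.94 and 4.68 in KO and fell by 0.93 (SE 0.18, adjusted p = 0.0447). Both have 1 probe set, and in Glra1 the KO mean lay under 5.

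Hunk, a kinase related to AMPK, read 7.79, 7.95 and 8.16 in WT and 7.55, 6.99 and 7.10 in KO and fell by 0.75 (SE 0.15, adjusted p = 0.0475). Cx3cr1, the fractalkine receptor of macrophages, read 7.87, 8.11 and 8.22 in WT and 7.57, 7.22 and 7.23 in KO. It fell by 0.72 (SE 0.13, adjusted p = 0.0433). The list of macrophage markers had a median of −0.19 (−0.12 without WT array 3) and 0 calls in limma. Of its 12 members 2 had an unadjusted p under 0.05, against 22.1% of all genes. Its summed levels were 13.56 to 13.84 in WT and 13.57 to 13.67 in KO. The part of macrophages in the fall of Cx3cr1 was not tested. The zinc finger gene Zfp941 fell by 0.74 and the annexin Anxa9 by 0.70. Genes with a Zfp symbol, a group chosen after the values had been seen, held 7 rises and 2 falls among 324 tested (2.78%, against 0.84% of all genes), and their median was 0.00 against −0.05 over all genes.

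Few of the 26 functional lists held more than 1 called gene. GABA and glycine signalling, which islet cells use between neighbouring β- and α-cells, had 13 of 27 members tested, with Gabrr2 up and Glra1 down. Of the others, 9 fell below the filter on low values and 5 had no named probe set. The list's median was 0.21, and 10 of 13 members were higher in KO. It was 0.09 without WT array 1 and 0.11 without KO array 1. Gad1, which makes GABA, read 11.29, 11.51 and 11.58 in WT and 11.83, 11.85 and 11.72 in KO, a difference of 0.34 that missed the threshold (adjusted p = 0.112). The glycine receptor β subunit Glrb differed by 0.39 (adjusted p = 0.102).

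Cytosolic chaperones had mostly higher means in KO. This held for 17 of 19 members, against 40.2% of all genes, and the median was 0.16. In 10 the KO arrays lay wholly above WT, as in 12% of all genes, and in 1 wholly below, as in 22.2%. The list was chosen with earlier results of these data known, so these counts are a description only. Hspa14 was the 1 call. The stress-induced chaperone Hspa1b read 10.43, 10.76 and 10.32 in WT and 11.57, 11.70 and 11.93 in KO, a 2.35-fold difference (log2 1.23, SE 0.32, adjusted p = 0.0883). Hsph1, an HSP110 chaperone, read 13.26, 13.43 and 13.21 in WT and 13.65, 13.63 and 13.63 in KO (difference 0.34, adjusted p = 0.0582). The small heat shock protein Cryab differed by 0.61 (adjusted p = 0.0864). In these 3 genes no KO array was as low as any WT array. The mean of the list lay between 10.72 and 10.81 on the WT arrays and between 11.06 and 11.10 on the KO arrays. Its median stayed between 0.14 and 0.18 without any 1 of the 6 arrays and was 0.16 after cyclic loess and 0.22 after median centring. Other lists also separated the genotypes by their mean level. Among them were GABA and glycine signalling, higher in KO, and lipid and cholesterol synthesis, lower in KO.

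The stress pathway of the ER, named in the title of the series, showed 1 call. Among 27 genes of the unfolded protein response, Sesn2 fell: this sestrin, induced by ER and amino acid stress, read 9.54, 9.40 and 9.72 in WT and 8.76, 8.98 and 8.95 in KO (difference −0.66, SE 0.10, adjusted p = 0.0272). Its second probe set was 0.34 lower (unadjusted p = 0.0236). The list's median was 0.04, and −0.01 after cyclic loess. Of 34 ER chaperones and degradation factors, 0 passed limma's threshold and 5 had an unadjusted p under 0.05, against 22.1% of all genes, 4 of them higher in KO. Derl1, a component of the ER export channel for misfolded proteins, read 12.55, 12.65 and 12.63 in WT and 12.88, 12.95 and 12.98 in KO (difference 0.32, adjusted p = 0.0582). The co-chaperone Dnajb9 differed by 0.25 (adjusted p = 0.0939) and the central chaperone Hspa5 by 0.18 (adjusted p = 0.217).

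Proliferation, also named in that title, turned on 1 array. Of 29 mitosis genes 0 passed limma's threshold and 1 had an unadjusted p under 0.05, against 22.1% of all genes. All 29 had a lower mean in KO (28 with either rescaling), with a median of −0.28. Their mean level was 7.96 on WT array 1 and between 6.91 and 7.18 on the other 5 arrays. The proliferation marker Mki67 read 10.03 on WT array 1, 8.75 and 8.87 on the other WT arrays, and 8.76, 9.15 and 9.09 in KO. Without WT array 1 the median of the list was 0.00, with 16 genes higher and 13 lower in KO.

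Genes of DNA replication followed the same array, with a mean level of 9.09 on WT array 1 against 8.58 to 8.65 on the others. Of 31 members 22 were lower in KO and the median was −0.22, or −0.03 without WT array 1. Yet 2 members rose. The helicase subunit Mcm4 read 9.74, 9.77 and 9.73 in WT and 10.39, 10.26 and 10.31 in KO (difference 0.57, SE 0.10, adjusted p = 0.0433), though its dimmer probe set differed by −0.11. The S-phase cyclin Ccne2 read 9.37, 9.56 and 9.19 in WT and 10.08, 10.02 and 10.03 in KO (difference 0.67, SE 0.13, adjusted p = 0.0496). Neither gene was high on WT array 1. Of 22 G1 cyclins and inhibitors, 0 passed limma's threshold. At an unadjusted p under 0.05 there were 5, 1 higher and 4 lower in KO, against 22.1% of all genes.

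**Figure D3:**
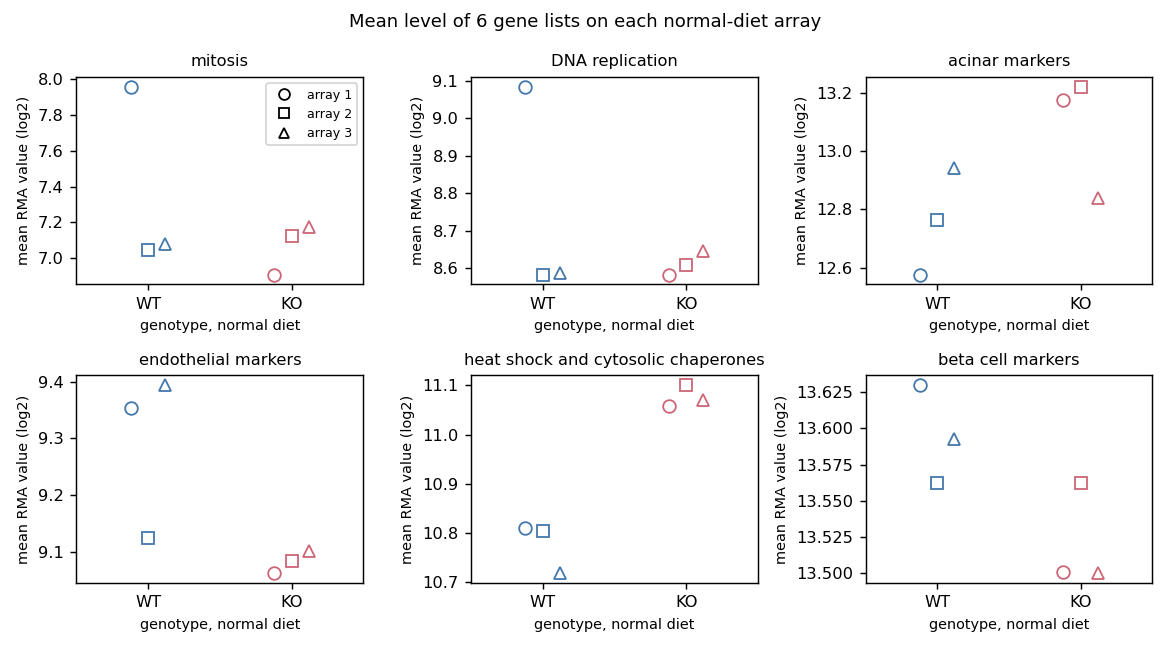
Mean RMA value (log2, vertical axis; each panel has its own range) of 6 gene lists on the 3 WT and 3 KO normal-diet arrays, with symbols for arrays 1, 2 and 3. WT array 1 stands alone in mitosis and DNA replication. In the chaperone list all 3 KO arrays lie above all 3 WT arrays, and in the endothelial list all 3 lie below, narrowly (highest KO 9.10, lowest WT 9.12).

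Of 26 genes of fatty acid oxidation 18 were lower and 8 higher, where 40.2% of all genes were higher, and the median was −0.14 against −0.05 over all genes. At an unadjusted p under 0.05 there were 9 of the 26, 3 higher and 6 lower, against 22.1% of all genes. After median centring 16 were lower and 10 higher, with a median of −0.08. The trifunctional protein subunit Hadhb rose, from 11.84, 12.15 and 12.04 in WT to 12.57, 12.54 and 12.63 in KO (difference 0.57, SE 0.11, adjusted p = 0.0445). Acadl, near Sgpp2, fell. The partner subunit of Hadhb, Hadha, differed by −0.25 (adjusted p = 0.219), the other way, and both further probe sets of Hadhb differed by −0.10 and −0.03, so the rise rests on 1 probe set. Of 29 genes of lipid and cholesterol synthesis 25 were lower, 13 of them with arrays that did not overlap (22.2% of all genes did so in that direction). None passed limma's threshold, and 7 of the 29 had an unadjusted p under 0.05, all lower, against 22.1% of all genes in either direction. Their median was −0.18, −0.10 after cyclic loess and −0.11 after median centring, which left 19 lower and 10 higher. The sterol carrier Stard4 differed by −0.38 (adjusted p = 0.0876) and the lipogenic regulator Srebf1 by −0.54 (adjusted p = 0.157).

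In tryptophan breakdown, Kynu was the 1 call among 8 genes tested, and 6 were lower, with a median of −0.26. At an unadjusted p under 0.05 there were 4 of the 8, all lower, against 22.1% of all genes. Tdo2, which opens the pathway, read 7.30, 7.51 and 7.35 in WT and 7.01, 6.89 and 6.65 in KO (difference −0.54, adjusted p = 0.0587). Of 32 subunits of oxidative phosphorylation 27 were lower, with a median of −0.08 against −0.05 over all genes. After median centring 19 were lower and 13 higher, with a median of −0.02. The complex III subunit Uqcrb was the exception that passed: it rose by 0.44 (SE 0.08, adjusted p = 0.0421), while its second probe set differed by 0.02. Among 28 antioxidant genes, catalase (Cat) rose from 10.19, 10.35 and 10.60 in WT to 11.01, 10.91 and 11.00 in KO (difference 0.59, SE 0.12, adjusted p = 0.0452), and its second probe set was 0.53 higher (unadjusted p = 0.0179).

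Among 23 inflammation genes the chemokine Cxcl1 rose by 0.69 (SE 0.13, adjusted p = 0.0444), from WT values of 5.63, 5.80 and 5.75 to KO values of 6.47, 6.35 and 6.42. A dimmer probe set of Cxcl1 differed by −0.04, and the list's median was 0.01. The NF-κB subunit Nfkb2 differed by 0.42 (adjusted p = 0.074) and the cytokine Il1b by −0.49 (adjusted p = 0.0939). Of 31 interferon response genes 0 passed limma's threshold and 5 had an unadjusted p under 0.05, against 22.1% of all genes. Iigp1, an interferon-induced GTPase, read 6.42, 6.31 and 6.84 in WT and 7.67, 7.35 and 8.31 in KO (difference 1.25, SE 0.28, adjusted p = 0.063).

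Of 34 Rab GTPases of vesicle traffic, Rab17 was the 1 call and 23 were lower, with a median of −0.07 against −0.05 over all genes. At an unadjusted p under 0.05 there were 12, 2 higher and 10 lower, against 22.1% of all genes. The list's mean level was 10.73 to 10.79 in WT and 10.60 to 10.66 in KO. Its summed level overlapped, at 16.83 to 16.85 in WT and 16.84 to 16.87 in KO. After median centring 18 were lower and 16 higher, with a median of −0.01. Of 31 collagens and basement membrane genes, Col6a3 fell and Matn2 rose, and 23 were lower, with a median of −0.15 that was −0.05 without WT array 3 and −0.28 without WT array 2.

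The genes that define β-cell function made 0 calls in limma. At an unadjusted p under 0.05 there were 4 of 17 β-cell transcription factors, 4 of 24 genes of glucose sensing and insulin release, 1 of 18 dense-core granule proteins, 2 of 17 disallowed and dedifferentiation genes, 5 of 24 genes of insulin and IGF signalling and 1 of 17 genes of the serotonin and prolactin axis, against 22.1% of all genes. Their medians lay between −0.09 and 0.03. That of the disallowed list, −0.09, was −0.27 without WT array 2 and 0.09 without WT array 3. The glucose transporter Slc2a2 and the β-cell factor Pdx1, named for their role, each differed by −0.08 (adjusted p = 0.562 and 0.55). Larger differences that also missed the threshold were −0.39 for Nkx6-1 (adjusted p = 0.168), −0.29 for Kcnj11 (0.227) and −0.28 for Abcc8 (0.232). The glucose sensing list had 17 lower and 7 higher members, or 14 and 10 after median centring. Its arrays lay wholly below WT in 4 members and wholly above in 5. Its mean level was 11.03 to 11.09 in WT and 10.915 to 11.01 in KO. The neuroendocrine factor Insm1 came nearest to the threshold, with 11.29, 11.30 and 11.39 in WT and 11.62, 11.59 and 11.82 in KO (difference 0.35, adjusted p = 0.0781). The mean of its probe sets differed by −0.08. Apoptosis, immediate early and circadian clock genes also made 0 calls in limma, with 6 of 26, 5 of 26 and 3 of 20 at an unadjusted p under 0.05.

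**Figure D4:**
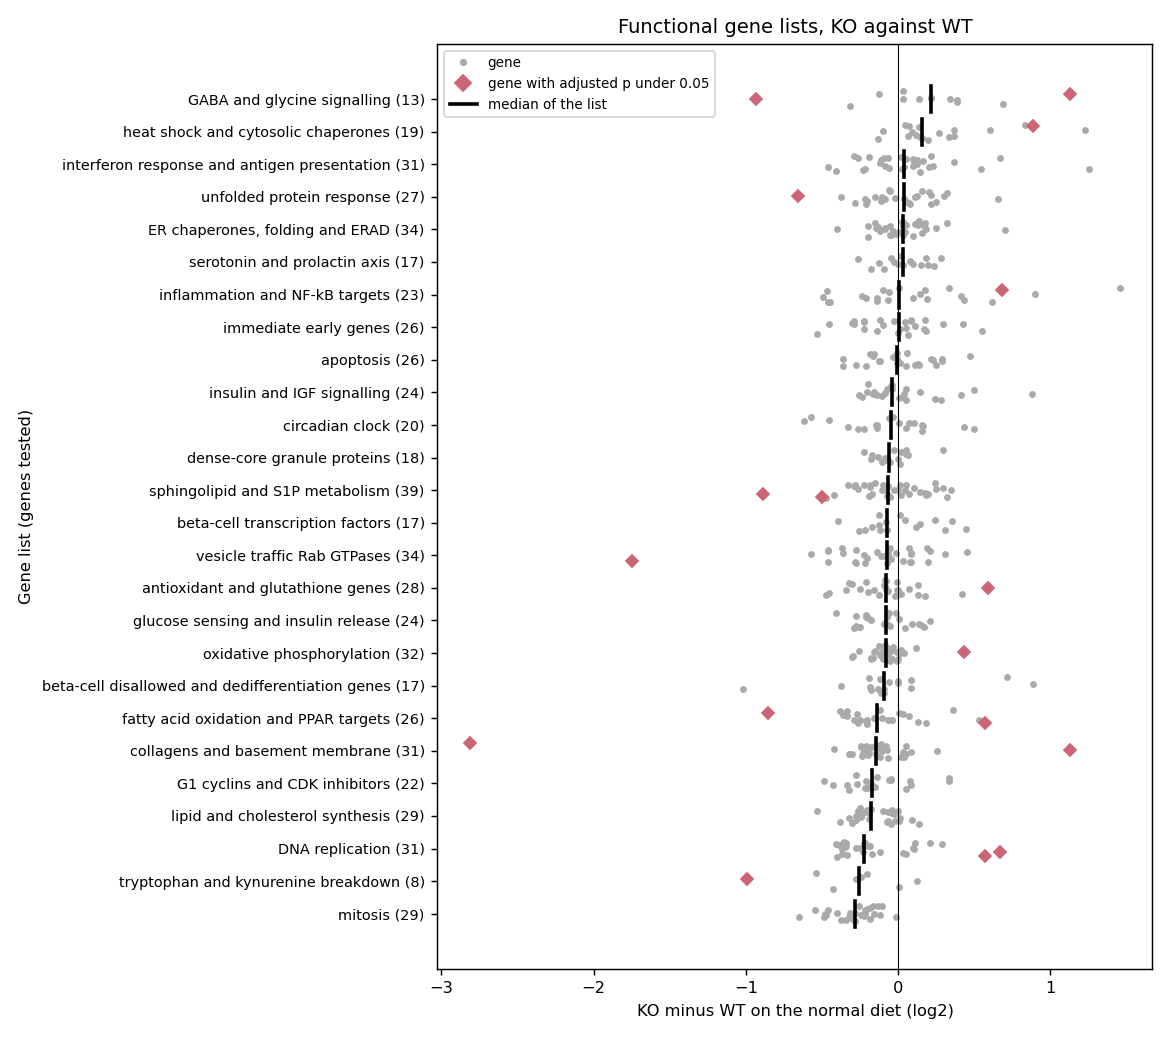
Differences between KO and WT on the normal diet (log2, horizontal axis) of the tested genes of 26 functional lists, with the number tested in parentheses; grey points are genes, red diamonds genes that passed the threshold and black bars list medians. Most points lie within 0.5 of 0, mitosis and tryptophan breakdown have the lowest medians, and GABA and glycine signalling and the cytosolic chaperones the highest.

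Markers of other cell types were read from the same arrays, and in bulk samples fewer cells of a type and less RNA per cell cannot be told apart. All 20 acinar markers tested, genes of the digestive enzyme cells around the islets, had a higher mean in KO (19 after cyclic loess), against 40.2% of all genes, by a median of 0.29. In 10 the KO arrays lay wholly above WT, as in 12% of all genes. The marker lists too were chosen with earlier results of these data known, so these counts are a description only. None passed limma's threshold and 11 had an unadjusted p under 0.05, against 22.1% of all genes. Their summed level was 17.83, 18.00 and 18.06 in WT and 18.27, 18.30 and 18.06 in KO, so that WT array 3 and KO array 3 were level. The bright enzymes Cel and Cpa1 differed by 0.36 (adjusted p = 0.161) and 0.23 (adjusted p = 0.202). Whether acinar RNA has a part in the rises described was not tested.

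Of the endothelial markers 13 of 14 had a lower mean in KO, with a median of −0.16 (−0.25 without WT array 2), 0 calls in limma and 5 members at an unadjusted p under 0.05, against 22.1% of all genes. Their summed level was 14.11 to 14.23 in WT and 13.98 to 14.02 in KO. The VEGF receptor Kdr read 11.97, 11.91 and 12.05 in WT and 11.55, 11.74 and 11.65 in KO (difference −0.33, adjusted p = 0.0817), and the endothelial adhesion molecule Pecam1 differed by −0.59 (adjusted p = 0.0939). Their part in the falls described was not tested. Of 9 T and NK cell markers 8 were higher, with a median of 0.21 that was 0.07 without KO array 3, 0 calls in limma and 2 members at an unadjusted p under 0.05.

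KO array 1 carried the highest levels of several intestinal and liver genes. The lipoprotein gene Apoa4 read 9.91 there and 7.41 to 8.25 on the other 5 arrays, Fabp2, a fatty acid binding protein of enterocytes, 10.41 against 8.33 to 9.38, and Apoa1 10.03 against 8.22 to 9.05. The medians of the intestinal and liver lists, 0.28 and 0.18, were −0.18 and −0.16 without that array. Neither list held a call in limma, and 2 of 6 and 0 of 7 members had an unadjusted p under 0.05, against 22.1% of all genes. The liver gene Alb was dim on every array, at 5.70 to 6.32, and the fat cell genes Adipoq, Lep and Cidec did not pass the filter on low values.

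The markers of β-cells had a median of −0.07, those of α-cells −0.10, those of δ- and PP cells −0.11 (−0.18 without WT array 2) and those of ducts −0.15 (−0.09 without WT array 1), with 0 calls each in limma and 1 of 8, 2 of 7, 1 of 7 and 0 of 11 at an unadjusted p under 0.05. Stromal, Schwann, B cell, fat cell and red blood cell markers, with medians between −0.11 and 0.02, also made 0 calls, with 1 of 14, 0 of 9, 2 of 7, 0 of 4 and 0 of 2 at that level. Over all genes the share at that level was 22.1%. All 4 sex-linked genes tested had a higher mean in KO, with a median of 0.46 (0.29 without KO array 1). They made 0 calls in limma, and 2 had an unadjusted p under 0.05. The Y-linked Kdm5d was near 10 on the KO arrays (10.08, 9.92 and 9.99) and lower in WT (9.32, 9.47 and 9.44), a difference of 0.59 (adjusted p = 0.051). The Y-linked Eif2s3y was bright on all 6 arrays, between 12.13 and 12.52, and differed by 0.07 (adjusted p = 0.743).

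The differences of the called genes were also read on the high-fat diet. They come from 6 other arrays, but those arrays entered the estimate of spread that decides the calls: on the normal-diet arrays alone 6 genes were called, 5 of them among the 128. The counts are therefore a description. On the high-fat diet, 116 of the 128 had the same sign, 70 of the 73 rises and 46 of the 55 falls, and in 82 the high-fat arrays did not overlap in that direction, against 14.8% of all genes in either direction. Over all genes, 7.43% did not overlap on both diets in 1 direction. Every called gene already had separate arrays on the normal diet. Of the 5220 genes with that property, 1132 were also separate on the high-fat diet in the same direction. No share over all genes is given for the same sign. The medians were 0.43 for the genes that rose and −0.18 for those that fell. Since the genes were chosen by their normal-diet values, smaller values on the other diet are a description only. On the high-fat diet 4 genes passed the threshold (0.0263%).

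The interaction, which tests whether the genotype difference itself changed with diet, passed for 0 of 15237 genes in limma, with a smallest adjusted p of 0.722. At an unadjusted p under 0.05 it held for 758 genes (4.97%). No gene is therefore shown to be particular to the normal diet. Among the called genes, Ahsa2 and Haus1 did not overlap on either diet and differed in opposite directions, as did 0.407% of all genes. This share is 62 genes, out of 5220 that did not overlap on the normal diet.

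The side-by-side values nevertheless varied. Speg differed by 1.46 and 1.36 on the normal and high-fat diets, Zfp982 by 1.23 and 1.31, Matn2 by 1.13 and 1.17, Stk25 by −1.52 and −1.54 and D2hgdh by −1.39 and −1.22. Col6a3 differed by −2.81 and −2.05 and Rab17 by −1.75 and −0.97. In other called genes the high-fat value was near 0. Gabrr2 differed by 1.13 and 0.03 (interaction 1.11, adjusted p = 0.722), Pde10a by 1.11 and 0.11 (adjusted p = 0.854), H3c4 by 0.92 and −0.08 (adjusted p = 0.722), Kynu by −0.995 and −0.01 (adjusted p = 0.854) and Fa2h by −0.89 and 0.03 (adjusted p = 0.836).

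In H3c4 the WT high-fat arrays, at 9.15, 9.20 and 9.16, lay at the level of the KO normal arrays. In Fa2h the WT high-fat arrays, at 5.30, 5.18 and 5.26, lay within the KO normal range of 4.97 to 5.55. The chaperone list had a median of 0.16 on the normal and −0.10 on the high-fat diet, the acinar markers 0.29 and 0.07, and the mitosis genes −0.28 and 0.48.

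**Figure D5:**
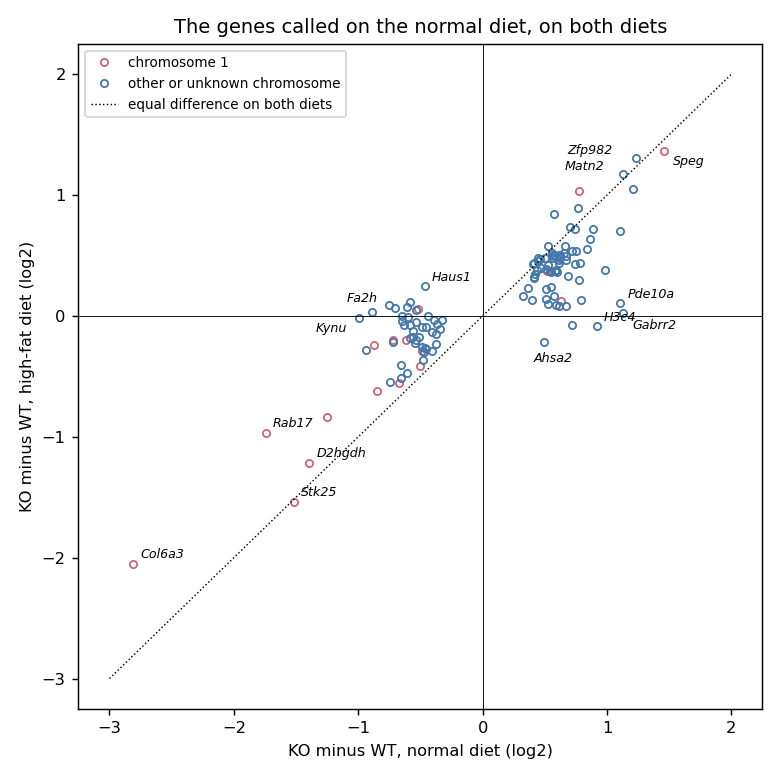
Difference between KO and WT (log2) on the normal diet (horizontal axis) and the high-fat diet (vertical axis) for the 128 genes that passed the threshold on the normal diet; red circles are genes of chromosome 1 and the dotted line marks equal differences. In all, 116 genes lie at the lower left or upper right, with 1 sign on both diets, while Gabrr2, Pde10a, H3c4, Kynu and Fa2h lie near 0 on the vertical axis.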

How the data were processed

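Total RNA from 12 samples was hybridised to 1 Affymetrix array each. The values deposited by the authors are log2 RMA levels per probe set, made with RMA and Partek 6.6 per the submitters' processing notes. The sources used here do not give the options. RMA equalises the arrays' distributions, so a shift of most genes would be hidden. The log2 scale was read from the range of 2.6 to 15.3. All arrays carry 1 date in their labels.

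Of 45101 probe sets, 64 are controls, 34945 name 1 gene, 932 several and 9160 are not listed in the annotation. 34741 matched the RefSeq gene table (GRCm38.p6) by Entrez identifier. Each of 18193 genes took its probe set with the highest mean over 12 arrays. A filter dropped 2956 genes that exceeded log2 5 on fewer than 3 arrays. List members without a named probe set were not analysed here.

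Limma 3.58.1 (R 4.3.3) fitted 1 coefficient per group to the 12 arrays, leaving 8 residual degrees of freedom, which moderation raised to 11.08. The number of arrays limits the precision. Adjusted p-values are Benjamini-Hochberg over all 15237 genes. In simulated data 50%, 86% and 100% of genes changed by 0.5, 1 and 2 (log2) were recovered, with 11 false calls. The simulated noise was independent between genes, without the deviations that many genes share on 1 array here. These shares and the false calls therefore may not hold for the real arrays. Genes named by rule are Sgpp2, the 15 largest rises and falls, and every called list member and called gene of chromosome 1. Up to 4 further members of a list were added by p. Other genes, among them Nsmaf, Mfsd9, Slc2a2, Pdx1, Mki67 and Hadha, were named by hand after their values had been seen. Same-numbered WT and KO arrays did not deviate together (r = −0.26, −0.10 and 0.05). With 3 arrays a group, these values cannot settle whether the numbers pair them. The alternatives changed the filter, scaling, probe set choice, arrays in the fit, prior and weights. The members and lists were chosen with earlier results of these data known. Figures were drawn with matplotlib 3.10.9.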

Additional observations from a re-analysis of the deposited data

Results flagged for a closer look

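In 2 called genes all arrays moved in opposite directions on the 2 diets. Ahsa2, an activator of the HSP90 chaperone, differed by 0.50 on the normal diet and by −0.22 on the high-fat diet, where its arrays again did not overlap, and the difference between the diets was 0.71. Haus1, a subunit of the augmin complex of the spindle, differed by −0.47 and 0.25, a difference between the diets of −0.71. Neither interaction passed limma's adjusted threshold (adjusted p = 0.722 for both). Over all genes tested, 62 (0.407%) had such opposite, non-overlapping arrays, out of 5220 that did not overlap on the normal diet.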

How the results depend on the processing

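The count of 128 genes was 238 after centring arrays on their medians, 69 when a gene's probe sets were averaged, 6 on the normal-diet arrays alone, 338 with a prior variance that follows the level, 1175 with array weights and 512 when every probe set was tested on its own. It lay between 2 and 223 when 1 array was left out. With the replicate number as a block on the normal-diet arrays it was 2, Col6a3 and Rab17. Whether the numbers pair the arrays is not known. The value of Sgpp2 stayed at −0.50 on the normal-diet arrays alone (adjusted p = 0.0655) and with that block (adjusted p = 0.187), and lay between −0.55 and −0.47 with 1 array left out. The count of interactions was 0 in every setting tried. Averaging turned the sign of Armc9 (−0.0714), Eif2a (0.139), Cdkn1b (−0.0949), Insm1 (−0.0833), Htr1b (−0.0447), Cpt1a (0.2145), Cox6c (0.0003), Sdhd (−0.0131) and Nid1 (−0.0124), so probe sets of these genes disagree. The cause of the other changes was not tested. Signal limits the dim genes: 5 called genes had a group mean under 5.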
